A study of Drosophila melanogaster with 16 samples.

Results

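Genes of fatty acid and ether lipid synthesis were described in the trachea of Drosophila larvae after cigarette smoke or air. The genes were given as 9 symbols: ATPCL, ACC, FASN1, Desat1, Elo68alpha, Elo68beta, Agpat3, Agpat4 and ADPS. They had been picked because several of them were higher after smoke in females and lower after smoke in males. Their changes with smoke, the difference between the sexes and any calls of these genes in the fits below are therefore a description here. Of the 9, 8 had a row among the 17559 genes of the deposited tables, 6 of them by symbol. Agpat3 and Agpat4 stand there as CG4729 and CG4753 and were matched through their gene identifiers. FASN1, the cytosolic fatty acid synthase, was matched neither by symbol nor by identifier and has no value here.

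All larvae were Canton S, a wild-type laboratory strain, and the RNA came from the isolated trachea, the branched airway of the insect. There were 4 groups of 4 libraries: females exposed to smoke, females kept in air, males exposed to smoke and males kept in air. Smoke came from burning 3R4F research cigarettes, with exposure lasting 60 min at 4 puffs per min. The labels give neither the age of the larvae nor the time between smoke and dissection, and do not say whether replicates were separate animals or cultures. A p-value here therefore speaks only of the spread among these libraries, and that spread may be technical.

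Fatty acids are built in the cytosol from acetyl-CoA, which ATP citrate lyase releases from citrate and acetyl-CoA carboxylase turns into malonyl-CoA for fatty acid synthase. Elongases then lengthen the chain, desaturases add double bonds, and acyltransferases place fatty acids on a glycerol backbone to give membrane lipids and stored fat. Ether lipids begin in the peroxisome, where alkylglycerone phosphate synthase (ADPS) swaps an acyl chain for a fatty alcohol. In the insect trachea, very long chain lipids are known to coat the airway lumen and help it to stay filled with gas.

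Between 15036560 and 23434521 reads per library were assigned to genes, with 19367755 to 23434521 in replicates 1 and 2 and 15036560 to 19431772 in replicates 3 and 4. Levels are given as normalised reads, which are reads of a gene after division by the size factor of the library, and were normalised in each sex alone, so levels set side by side between the sexes were not tested. Changes are smoke minus air on the log2(normalised reads + 1) scale, with the SE of the limma fit. Called means a Benjamini-Hochberg adjusted p under 0.05 in limma over all genes tested. Fewer cells of a type and less RNA per cell cannot be told apart in such bulk samples.

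ATPCL (FBgn0020236, chromosome arm 2R), ATP citrate lyase, had 7119, 7899, 8072 and 6032 normalised reads in the 4 female smoke libraries, against 5290.3, 5687, 5183 and 5232 in female air. In male smoke it had 4257, 4540.2, 4791 and 4545 normalised reads, against 5844, 6395, 6526 and 7980.3 in male air. Every female smoke library lay above every female air library, and every male smoke library lay below every male air library. The group means were 7281 ± 930 in female smoke and 5348 ± 230 in female air (SD, n = 4 each), a log2 change of 0.44 ± 0.10. In males they were 4533 ± 219 in smoke and 6686 ± 912 in air (SD, n = 4 each), a log2 change of -0.55 ± 0.10. The exons of ATPCL share 280 bases with its neighbours CG8320 and Tmem131 in the reference annotation. Neither neighbour was called in either sex, with log2 changes of -0.01 for CG8320 and 0.03 for Tmem131 in females and -0.05 and -0.03 in males.

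ACC (FBgn0033246, 2R), acetyl-CoA carboxylase, changed least of the 8 genes. It had 3861, 4224, 4515 and 4003 normalised reads in female smoke, against 3459, 3771, 3761 and 3595 in female air. The female groups did not overlap, with a log2 change of 0.19 ± 0.07, which became 0.07 when the libraries were rescaled to the same total. In male smoke ACC had 3649, 3646, 3839 and 3603 normalised reads, against 3781, 3309.9, 3851 and 3924 in male air. The male groups overlapped, with a log2 change of -0.01 ± 0.07 whose sign turned without male smoke replicate 4, male air replicate 3 or male air replicate 4.

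Elo68alpha (FBgn0052072, 3L) and Elo68beta (FBgn0036128, 3L) are neighbouring genes for elongases of very long chain fatty acids. Elo68alpha is known from the reproductive tract of adult male flies. It had 554, 654, 111 and 584 normalised reads in female smoke, against 148, 353, 15.1 and 88.3 in female air. In male smoke it had 0.970, 96.3, 2.65 and 2.34 normalised reads, against 540.2, 822, 253 and 786 in male air. The female groups overlapped through smoke replicate 3, the lowest of its group, while 3 of 4 smoke libraries lay above all air libraries. In males the groups did not overlap, and smoke replicate 2 stood far above the other 3 smoke libraries. The log2 change of Elo68alpha was 2.07 ± 0.95 in females and -6.30 ± 1.15 in males, and without male smoke replicate 2 the male change was -7.57. In edgeR, which fits read counts, both changes were smaller in size, at 1.63 in females and -4.48 in males.

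Elo68beta followed the same order of groups at lower read numbers. It had 183, 197, 73.4 and 213 normalised reads in female smoke, against 38.7, 85.1, 0 and 90.6 in female air. Male smoke libraries had 1.94, 12.8, 0 and 8.20 normalised reads, against 174, 248, 96.7 and 591 in male air. Smoke replicate 3 kept the female groups from separating, and the male groups did not overlap. The log2 change was 2.72 ± 1.36 in females and -5.67 ± 0.88 in males, and in edgeR it was 1.62 and -5.52. The female change rested in part on air replicate 3, where Elo68beta had 0 reads and Elo68alpha had 12. Without that library the female change was 1.20 for Elo68beta and 1.22 for Elo68alpha.

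Of the reads assigned to this pair, Elo68alpha held 74.4% in female smoke and 75.4% in female air, and 83.1% in male smoke and 69.1% in male air, over the summed reads of each group. The male smoke share rests on 142 reads, of which 113 were Elo68alpha reads of replicate 2. The other 3 male smoke libraries held 1, 2 and 2 reads of Elo68alpha. How the counting treated reads shared between these paralogs is not given in the sources used here, so the split within the pair is uncertain.

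Desat1 (FBgn0086687, 3R), an acyl-CoA desaturase that puts a double bond into saturated chains, was the most abundant of the 8 genes. It had 13603, 14677, 14876 and 11418 normalised reads in female smoke, against 8838, 7140, 8111 and 8694 in female air. Male smoke libraries had 7647, 7271, 8351 and 7128 normalised reads, against 9379.6, 8623, 10805 and 11233 in male air. The groups did not overlap in either sex, with smoke above air in females and below air in males. The log2 change was 0.73 ± 0.11 in females and -0.39 ± 0.10 in males.

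Agpat3 (FBgn0036623) and Agpat4 (FBgn0036622) are neighbours on 3L and encode acyltransferases that turn lysophosphatidate into phosphatidate, the precursor of phospholipids and triglycerides. Agpat3 had 2383, 2463, 2091 and 2371 normalised reads in female smoke, against 1615, 1853, 1609.6 and 1786 in female air. Male smoke libraries had 1321, 1423, 1553 and 1550.2 normalised reads, against 2479.5, 2499, 2493 and 2842 in male air. The groups did not overlap in either sex. The log2 change of Agpat3 was 0.44 ± 0.08 in females and -0.82 ± 0.08 in males.

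Agpat4 was a low gene with larger changes. It had 48.0, 57.5, 47.7 and 38.6 normalised reads in female smoke, against 17.0, 10.7, 13.9 and 15.5 in female air. In male smoke it had 0.970, 4.26, 5.29 and 1.17 normalised reads, which were 1, 5, 4 and 1 reads before normalisation, against 29.7, 36.6, 38.2 and 58.5 normalised reads in male air. The groups again did not overlap, with smoke above air in females and below it in males. The log2 change was 1.69 ± 0.23 in females and -3.55 ± 0.49 in males, and the male value was -2.53 with a pseudocount of 5.

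ADPS (FBgn0033983, 2R) encodes the peroxisomal enzyme that forms the ether bond. It had 131, 171, 118 and 127 normalised reads in female smoke, against 50.3, 48.3, 30.3 and 105 in female air. In male smoke it had 0, 5.11, 3.97 and 1.17 normalised reads, from 0, 6, 3 and 1 reads, against 76.0, 79.4, 67.4 and 417 normalised reads in male air. Male air replicate 4 stood far above the other 3 male air libraries, and the groups did not overlap in either sex. The log2 change was 1.34 ± 0.34 in females and -5.34 ± 0.77 in males. Without male air replicate 4 the male change was -4.72, and with a pseudocount of 5 it was -4.05.

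**Figure D1:**
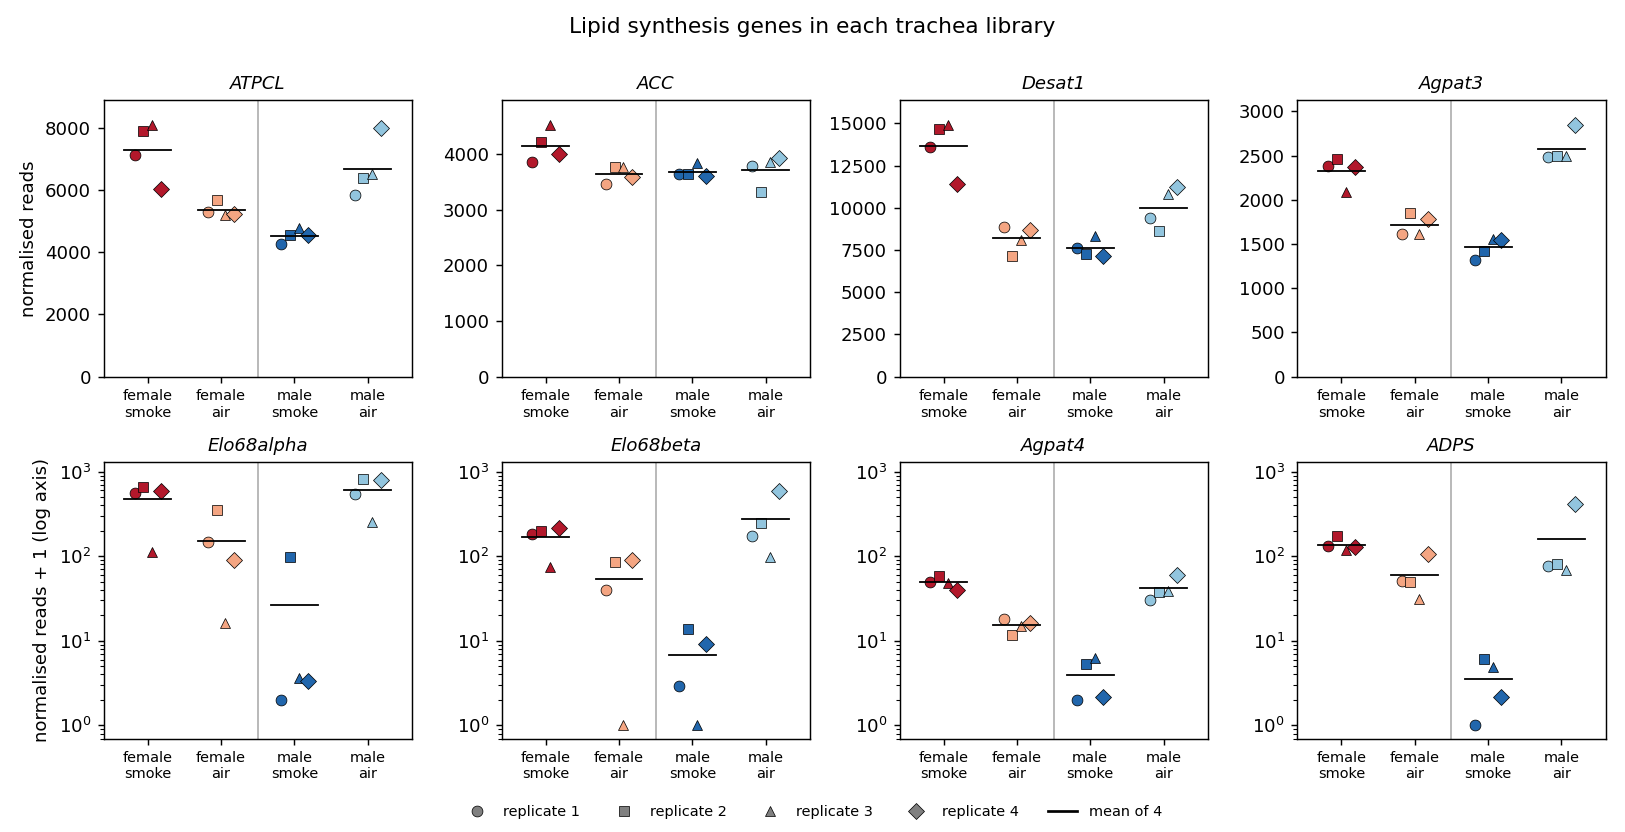
Normalised reads of 8 lipid synthesis genes in each trachea library, with 4 libraries per group and a bar at the group mean; the upper 4 panels have linear axes from 0 and the lower 4 have log axes of normalised reads + 1. Female smoke lies above female air and male smoke below male air in most panels, ACC being nearly level in males, and Elo68alpha in male smoke has a single high library at 96.3.

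Set side by side, the female changes of the 8 genes were all positive and the male changes all negative, with medians of 1.04 in females and -2.19 in males, against -0.02 and -0.01 over all genes tested. In limma, 5 of the 8 were called higher in female smoke, where 10.9% of 8877 genes were called higher, and the other 3 were Elo68alpha, Elo68beta and ACC. In males, 7 of the 8 were called lower, all but ACC, where 4.64% of 8705 genes were called lower. Counting either direction, 18.0% of genes were called in females, 13.5% in males and 2.17% for the difference between the sexes. As the genes were picked on these contrasts, nothing is read from those counts. When each library was left out in turn, the female call was kept in 2 of 8 cases for ADPS, 3 of 8 for ATPCL and 8 of 8 for Desat1, Agpat3 and Agpat4. With libraries of an equal total ATPCL and Agpat3 lost their female calls, and with an equal upper quartile ATPCL did. The male call of Desat1 was kept in 1 of 8 cases, that without male air replicate 2, and was lost with no filter on low values, whereas the other 6 male calls were kept in 8 of 8. In male smoke, Agpat4 and ADPS had at least 10 normalised reads in 0 of 4 libraries and Elo68alpha and Elo68beta in 1 of 4, so these 4 passed the filter on low values mainly through male air.

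The female minus male difference in log2 change was 8.37 ± 1.61 for Elo68alpha, 8.39 ± 1.74 for Elo68beta, 6.68 ± 0.88 for ADPS and 5.24 ± 0.52 for Agpat4. It was 1.26 ± 0.11 for Agpat3, 1.12 ± 0.15 for Desat1, 0.99 ± 0.14 for ATPCL and 0.20 ± 0.09 for ACC. The genes with the largest differences were the ones with the fewest reads in male smoke. Of the 8 differences limma called 7, all but ACC, where 2.0% of 8606 genes were called with a positive difference. Those 7 calls were kept in all 16 cases when a library was left out, but in edgeR the difference of Elo68alpha was 6.12 and was not called. Female smoke lay wholly above female air for 6 of the 8 genes, against 13.7% of genes, and male smoke wholly below male air for 7, against 9.11%. Groups that did not overlap in either sex, with smoke above air in females and below it in males, were found for 5 of the 8 genes, against 0.883% of 8606 genes. As the genes were picked for these directions, nothing is read from these calls, from their being kept, or from these shares.

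**Figure D2:**
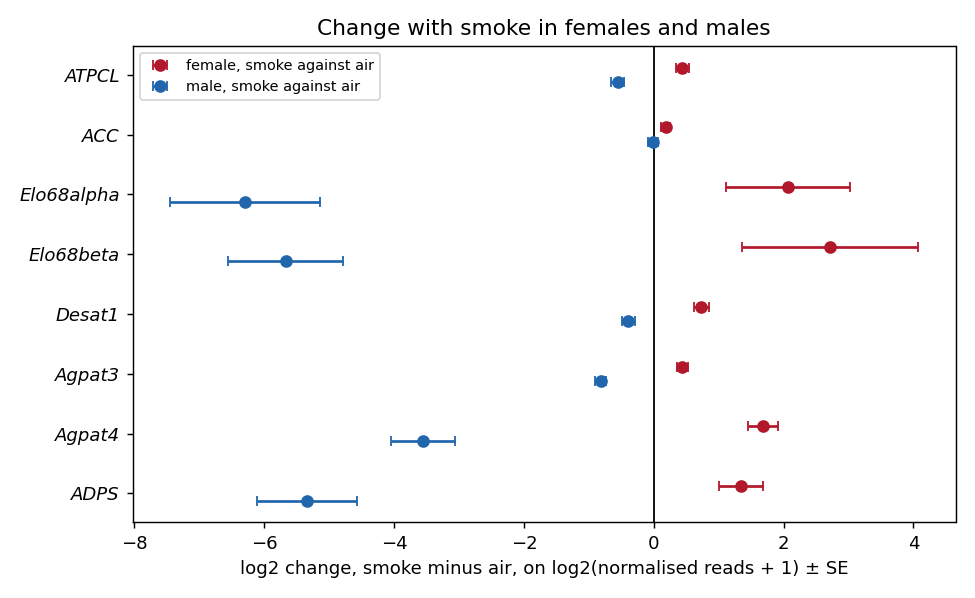
Log2 change of smoke minus air for 8 lipid synthesis genes in females (red) and males (blue), on log2(normalised reads + 1), with SE bars from limma and 4 libraries per group. Elo68alpha, Elo68beta, Agpat4 and ADPS lie between -6.30 and -3.55 in males, while Desat1, ATPCL and Agpat3 lie between -0.82 and -0.39 and ACC lies near 0.

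The directions were also compared between replicates 1 and 2 and replicates 3 and 4, which differ in depth. In females the change within replicates 1 and 2 and within replicates 3 and 4 was 1.39 and 2.75 for Elo68alpha, 1.71 and 3.72 for Elo68beta, 0.83 and 0.63 for Desat1, 0.45 and 0.42 for ATPCL, and 0.16 and 0.21 for ACC. For Agpat3 it was 0.49 and 0.39, for Agpat4 1.88 and 1.49, and for ADPS 1.59 and 1.10. In males the same values were -5.59 and -7.00 for Elo68alpha, -5.04 and -6.31 for Elo68beta, -0.27 and -0.51 for Desat1, and -0.48 and -0.63 for ATPCL. They were -0.86 and -0.78 for Agpat3, -3.40 and -3.71 for Agpat4, and -4.99 and -5.69 for ADPS. ACC alone changed sign in males, with 0.04 in replicates 1 and 2 and -0.06 in replicates 3 and 4. As the genes were picked for these directions in the same libraries, nothing is read from the signs shared by these subsets.

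Per length of exon, in RPKM (reads scaled by exon length and by the total reads of the library), the genes spanned a wide range of levels. Desat1 averaged 277 ± 34.5 RPKM in female smoke and 180.2 ± 19.4 in female air, and 159.7 ± 9.02 in male smoke and 221 ± 17.4 in male air (SD, n = 4 each). ATPCL followed with 84.7 ± 11.1 in female smoke and 67.5 ± 4.83 in female air, and 54.6 ± 2.01 in male smoke and 84.7 ± 10.3 in male air. Agpat3 came next with 49.0 ± 5.22 and 39.1 ± 3.40 in female smoke and air, and 31.8 ± 1.75 and 59.1 ± 4.07 in male smoke and air. In female air these 3 levels lay apart by more than their SDs, and ACC stood below them at 22.0 ± 0.80 RPKM.

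The order of the lower genes depended on the group. Elo68alpha averaged 25.9 ± 13.7 RPKM in female smoke and 9.0 ± 8.68 in female air, and 1.48 ± 2.74 in male smoke and 35.7 ± 16.4 in male air. Its range in female smoke took in the level of ACC, 23.1 ± 1.10 RPKM, so these neighbours did not differ beyond their spread. Elo68beta averaged 10.1 ± 3.97 and 3.52 ± 2.77 RPKM in female smoke and air, and 0.363 ± 0.376 and 18.2 ± 13.9 in male smoke and air. ADPS and Agpat4 were lowest, at 2.44 ± 0.496 and 1.49 ± 0.275 RPKM in female smoke and at 0.0474 ± 0.0447 and 0.0936 ± 0.0690 RPKM in male smoke. In male smoke these last levels were within their SD of each other.

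The spread between replicates differed between genes. Within a group the coefficient of variation of normalised reads lay between 2.86% and 13.6% for ATPCL, ACC, Desat1 and Agpat3. For Elo68alpha it was 51.9% in female smoke, 96.0% in female air, 184% in male smoke and 43.8% in male air. ADPS varied by 17.4% in female smoke and 55.2% in female air, and by 92.8% in male smoke and 107% in male air.

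In the authors' deposited table, sheets of changed genes begin at a log2 change of 0.59, and the female one of higher genes ends at an adjusted p of 0.0994. Desat1 (0.72), Agpat4 (1.56) and ADPS (1.05) stood in that sheet of genes higher in female smoke. Elo68alpha (0.81) and Elo68beta (0.84) stood in neither female sheet, with adjusted p of 0.196 and 0.176 in the authors' fit. In the authors' deposited table for males, Elo68alpha (-1.65), Elo68beta (-3.76), Agpat3 (-0.82) and Agpat4 (-3.03) stood in the sheet of genes lower in smoke. ADPS had a log2 change of -3.69 in males in the authors' deposited table, but no adjusted p, and stood in neither sheet. For Elo68alpha, Elo68beta and ADPS these male changes were smaller in size than those of limma, -6.30, -5.67 and -5.34, and came from another method.

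The enzymes around these genes were examined in lists of fatty acid synthesis, of glycerolipid and phospholipid synthesis, and of ether lipids and peroxisomes, with 90 measured genes that were not among the 9. These lists, like those of regulators and oxidation below, were chosen with earlier results of these data known. Their shares beside those of all genes are therefore a description and no independent check. In females limma called 14 of 72 tested genes higher and 0 lower, against 10.9% higher and 7.09% lower over all genes. At an unadjusted p under 0.05 there were 22 higher and 3 lower, edgeR called 14 higher and 1 lower, and DESeq2 called 21 and 2. In males limma called 1 of 65 higher and 3 lower, against 8.89% and 4.64% over all genes, with 2 higher and 15 lower at an unadjusted p under 0.05. The female count was 8 without female smoke replicate 2 and 9 without female smoke replicate 3, and the male count was 2 without male smoke replicate 1, 2 or 4 or male air replicate 2 or 4. Within replicates 1 and 2 the counts were 0 in females and 2 in males, and within replicates 3 and 4 they were 10 and 0. All 14 female and all 4 male changes kept their sign in both of these subsets. They had been called over the same libraries, so nothing is read from their signs.

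Of these tested genes, 29 of 65 (44.6%) had a positive change in females and a negative one in males, against 1120 of 8606 genes (13.0%). With an equal upper quartile these were 29 of 65, against 11.2% of all genes, and with an equal total 27 of 65, against 10.5%. The median change was 0.21 in females and -0.15 in males. In fatty acid synthesis, 3 of 27 genes rose in females, a share near the 10.9% of all genes tested. The rise with the smallest adjusted p was that of Acsl, which activates long chain fatty acids to their CoA esters. It had 7187 ± 1174 normalised reads in female smoke and 3891 ± 697 in female air, a log2 change of 0.89 ± 0.16 (limma adjusted p = 0.00889). In males Acsl had 3755 ± 295 in smoke and 4780.0 ± 669 in air, a log2 change of -0.34 ± 0.11 that did not pass (limma adjusted p = 0.0809). The female minus male difference of Acsl was 1.23 ± 0.21 (limma adjusted p = 0.00337). Pgd, phosphogluconate dehydrogenase, a source of the NADPH that fatty acid synthesis consumes, rose by 0.44 ± 0.10 in females (limma adjusted p = 0.0211). The female count of this list was 1 without female smoke replicate 2 or 3, 6 without female air replicate 2 and 5 without female air replicate 3, and Acsl kept its female call in all 8 cases.

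Hacd1, the hydroxyacyl-CoA dehydratase of the elongation cycle, fell in males, to 438 ± 33.1 normalised reads in smoke, against 621 ± 107 in air. Its log2 change was -0.49 ± 0.13 in males (limma adjusted p = 0.0416), a call kept in 1 of 8 cases when a library was left out, that without male air replicate 1, and its female minus male difference was 0.88 ± 0.18 (limma adjusted p = 0.0178). FASN3, a fatty acid synthase gene known from the oenocytes, was not called in either sex. It had 870 ± 371 normalised reads in female smoke and 935 ± 864 in female air, and 379 ± 154 in male smoke and 795 ± 342 in male air.

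In glycerolipid and phospholipid synthesis, 7 of 20 genes (35%) rose in females, against 10.9% of all genes. In males 1 of 20 rose and 1 fell, against 8.89% and 4.64% of all genes. The female count was 4 without female smoke replicate 1 or 2. Agpat2, which shares its reaction with Agpat3 and Agpat4, was the 1 that fell. It had 481 ± 137 normalised reads in female smoke and 164 ± 67.7 in female air, a log2 change of 1.62 ± 0.36 (limma adjusted p = 0.0190). In males it had 34.7 ± 15.0 in smoke and 354 ± 102 in air, a log2 change of -3.37 ± 0.34 (limma adjusted p = 0.00115). Agpat2 groups did not overlap in either sex, and the female minus male difference was 4.98 ± 0.53 (limma adjusted p = 0.000132). Its female call was lost without female smoke replicate 1 or 2, while its male call and its difference kept theirs without any 1 library.

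Both other genes named for a rise in this list encode enzymes of later steps. Lpin, the lipin phosphatase that makes diacylglycerol from phosphatidate, rose by 0.93 ± 0.11 in females (limma adjusted p = 0.00151), and its male change of 0.41 ± 0.18 did not pass (limma adjusted p = 0.165). Pcyt1, the cytidylyl transferase that sets the rate of phosphatidylcholine synthesis, rose by 1.08 ± 0.14 in females (limma adjusted p = 0.00241) and by 0.76 ± 0.15 in males (limma adjusted p = 0.0182), a male call lost without male smoke replicate 4. The sexes did not pass the test of their difference for Pcyt1, at 0.32 ± 0.22 (limma adjusted p = 0.564), nor for Lpin, at 0.52 ± 0.22 (limma adjusted p = 0.313). For oys, a membrane-bound lysophospholipid acyltransferase, the difference was 0.45 ± 0.10 (limma adjusted p = 0.0361), a call kept in 3 of 16 cases when a library was left out.

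In the list of ether lipids and peroxisomes, 4 of 25 genes (16%) rose in females and 1 of 22 (4.55%) fell in males, against 10.9% and 4.64% of all genes. The male share was thus near that of all genes. Gnpat, the acyltransferase that acts just before ADPS and was named after its value was seen, rose by 0.61 ± 0.14 in females (limma adjusted p = 0.0212), a call kept in 2 of 8 cases when a library was left out. The other 3 that rose are wat, CG5065 and CG1441, all listed as fatty acyl-CoA reductases, the enzymes that make fatty alcohols. The product of wat, waterproof, is known to be needed for gas filling of the trachea. It had 18368 ± 1354 normalised reads in female smoke and 7582 ± 979 in female air, a log2 change of 1.28 ± 0.11 (limma adjusted p = 0.000424). In males wat had 10254 ± 1374 in smoke and 11008 ± 2377 in air, and its groups overlapped.

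The female minus male difference was 1.37 ± 0.21 for wat (limma adjusted p = 0.00148) and 1.91 ± 0.37 for CG5065 (limma adjusted p = 0.0112). CG1441 had 411 ± 116 normalised reads in female smoke and 124 ± 57.0 in female air, a log2 change of 1.80 ± 0.38 (limma adjusted p = 0.0147). In males it had 30.6 ± 37.3 in smoke and 162 ± 29.5 in air, a log2 change of -3.05 ± 0.72 (limma adjusted p = 0.0301). Between the sexes the changes of CG1441 differed by 4.85 ± 0.86 (limma adjusted p = 0.00570), near the difference of Agpat2. When libraries were left out in turn, wat, CG5065 and CG1441 kept their female calls and their calls for the difference in every case, and CG1441 kept its male call only without male smoke replicate 3.

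Over the 3 lists together, limma called 8 of 65 genes with a positive difference between the sexes and 0 with a negative one, against 2.0% positive and 0.174% negative over all genes. At an unadjusted p under 0.05 there were 22 positive and 0 negative, edgeR called 8 and 0, and DESeq2 called 13 and 0. The low share of negative differences over all genes depended on the model. With a term for each replicate number, 340 genes were called positive and 329 negative. In the 3 lists the count was 3 within replicates 1 and 2 and 0 within replicates 3 and 4, where 1 gene of all was called. All 8 differences were positive in both, but they had been called over the same libraries, so nothing is read from that.

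Regulators of lipid synthesis were examined beside the enzymes, and limma called 3 of 13 higher in females and 1 higher in males, against 10.9% and 8.89% of all genes. Of the 13, 10 had positive changes in both sexes, against 35.2% of 8606 genes, and 1 had a positive change in females and a negative one in males. SREBP, the transcription factor that activates fatty acid synthesis genes, was not called in either sex. It had 3846 ± 405 normalised reads in female smoke and 3455 ± 376 in female air, and 3756 ± 523 in male smoke and 3465 ± 291 in male air. SCAP, which escorts SREBP to the Golgi, rose in both sexes, by 0.63 ± 0.09 in females (limma adjusted p = 0.00282) and by 0.58 ± 0.07 in males (limma adjusted p = 0.00253). The proteases S1P and S2P, which release SREBP from the membrane, were not called, with log2 changes of -0.15 and 0.19 in females and -0.08 and 0.11 in males. AMPKalpha, the kinase subunit that restrains ACC, was not called either, with 0.30 ± 0.11 in females and 0.04 ± 0.11 in males. SNF4Agamma, the gamma subunit of the same kinase, named after its value was seen, rose by 0.51 ± 0.13 in females (limma adjusted p = 0.0274), a call kept in 4 of 8 cases when a library was left out. Hnf4, a nuclear receptor of lipid metabolism, rose by 0.65 ± 0.07 in females (limma adjusted p = 0.00151), and its difference between the sexes was 0.56 ± 0.12 (limma adjusted p = 0.0224), a call kept in 11 of 16 cases when a library was left out.

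Genes of fatty acid oxidation, the opposite pathway, showed 1 rise in females (6.25%) and 3 falls in males (18.8%) among 16, against 10.9% and 4.64% of all genes. ScpX, a peroxisomal thiolase with a sterol carrier domain, was called in both directions, with log2 changes of 0.40 ± 0.10 in females (limma adjusted p = 0.0283) and -0.67 ± 0.11 in males (limma adjusted p = 0.00937). Its female minus male difference was 1.06 ± 0.15 (limma adjusted p = 0.000999). Acox57D-p, a peroxisomal acyl-CoA oxidase, fell to 49.5 ± 17.2 normalised reads in male smoke, against 174 ± 85.6 in male air (limma adjusted p = 0.0191). The third fall, named after its value was seen, was that of colt, a mitochondrial acylcarnitine carrier, by 0.40 ± 0.10 (limma adjusted p = 0.0352). In 9 of the 16 the female change was positive and the male one negative, against 13.0% of all genes. With libraries of an equal upper quartile or total there were 6, against 11.2% and 10.5% of all genes. In both of these settings limma called 0 higher and 1 lower in females. When 1 library was left out, ScpX kept its male call and its call for the difference throughout and its female call in 3 of 8 cases. Acox57D-p lost its call without male smoke replicate 1, where 1 of the 16 was called lower in males, and colt kept its call only without male smoke replicate 4.

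**Figure D3:**
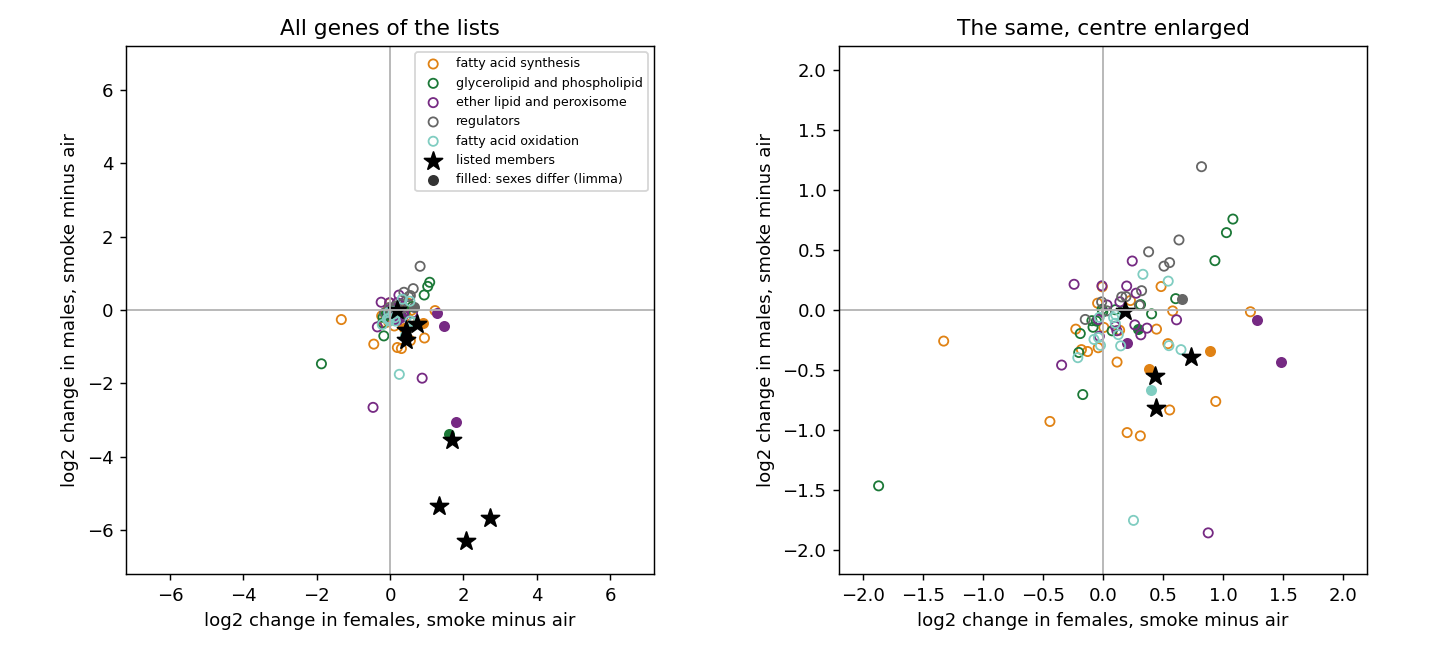
Log2 change of smoke minus air in females (horizontal) and males (vertical) for each gene of the lipid lists tested in both sexes, with the right panel enlarging the centre; circles are genes of 5 lists, filled where limma called the female minus male difference, and stars are the 8 genes. The stars lie to the lower right, with filled circles for Agpat2 and CG1441 beside them, while regulators lie to the upper right.

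The trachea label was checked by 10 tracheal genes such as trh, Gasp and dpy. Their summed level was 12298 ± 844 CPM (reads scaled by the total reads of the library) in female smoke and 10219 ± 1819 in female air, and 14197 ± 1671 in male smoke and 11366 ± 1648 in male air, and none of the 10 was at 0 in any group. RNA of other tissues was present in amounts that differed between libraries. The 9 fat body genes summed to 1250.1 to 5776 CPM in female smoke and 926 to 6374 in female air, and to 261 to 1751 in male smoke and 1042 to 34615 in male air. In limma 0 of 9 fat body genes were called in either sex, with a median log2 change of -0.32 in females and -2.97 in males. None of them was at 0 in any group.

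Fat body and oenocytes are the main lipid tissues of the larva, so the changes were set beside them. The fat body sum was highest in male air replicate 3, at 34615 CPM, and that library had the lowest Elo68alpha, Elo68beta and ADPS of its group. In the same library ATPCL, ACC, Desat1 and Agpat4 were the second highest of their group and Agpat3 the third. Without it the male log2 changes were -6.66 for Elo68alpha, -6.07 for Elo68beta, -5.59 for ADPS, -3.57 for Agpat4, -0.83 for Agpat3, -0.56 for ATPCL and -0.35 for Desat1. Male air replicate 4 came next in fat body sum, at 5392 CPM. It had the highest ATPCL, ACC, Desat1, Elo68beta, Agpat3, Agpat4 and ADPS of its group. Without replicate 4 the same changes, in the same order, were -6.12, -5.20, -4.72, -3.37, -0.77, -0.46 and -0.33. Most of the 9 oenocyte genes also stand in the lipid lists, namely FASN2, FASN3, CG18609, CG6660, FarO, CG17560 and CG17562, so they are no separate set. The 9 oenocyte genes summed to 98.1 to 180.2 CPM in female smoke and 19.2 to 430.1 in female air. In males they summed to 14.6 to 35.9 CPM in smoke and 36.0 to 180.4 in air, and these groups did not overlap. Of 4 oenocyte genes tested in males limma called 0 higher and 1 lower, the median log2 change was -1.86, and none of the 9 was at 0 in any group. Of 8 oenocyte genes tested in females limma called 0, and the median log2 change was 1.40. The mean of the oenocyte sum went the other way, at 131 ± 39.2 CPM in female smoke and 153 ± 192 in female air (SD, n = 4 each). Female air replicate 3 alone held 430.1 CPM, so the direction in females depended on the measure. The part of oenocyte or fat body RNA in the changes of either sex was not tested.

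Markers of testis, examined because Elo68alpha is known from the male reproductive system, were low in all groups. The 8 testis genes summed to 4.71 to 7.56 CPM in female smoke and 5.66 to 9.33 in female air, and to 8.01 to 9.76 in male smoke and 6.07 to 8.53 in male air, with 1 of the 8 at 0 in every group but male air and 0 of 2 tested genes called in either sex. The 6 muscle genes averaged 1870.1 ± 1614 CPM in female smoke and 5328 ± 3739 in female air, and 680.2 ± 761 in male smoke and 4049 ± 3272 in male air, with 3 called lower in males. The 5 hemocyte genes averaged 962 ± 196 and 924 ± 428 CPM in female smoke and air, and 480 ± 168 and 884 ± 314 in male smoke and air, with 0 called in limma. The 6 salivary gland genes averaged 5.86 ± 3.35 CPM in female smoke and 149 ± 87.5 in female air, with all 6 called lower. In males they averaged 15.1 ± 14.5 in smoke and 1651 ± 3261 in air, with 0 of 5 tested genes called. Male air replicate 3 alone held 6543 CPM. Male air replicates 1, 2 and 4 held 33.3, 10.7 and 17.8, within the male smoke range of 3.61 to 34.5.

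**Figure D4:**
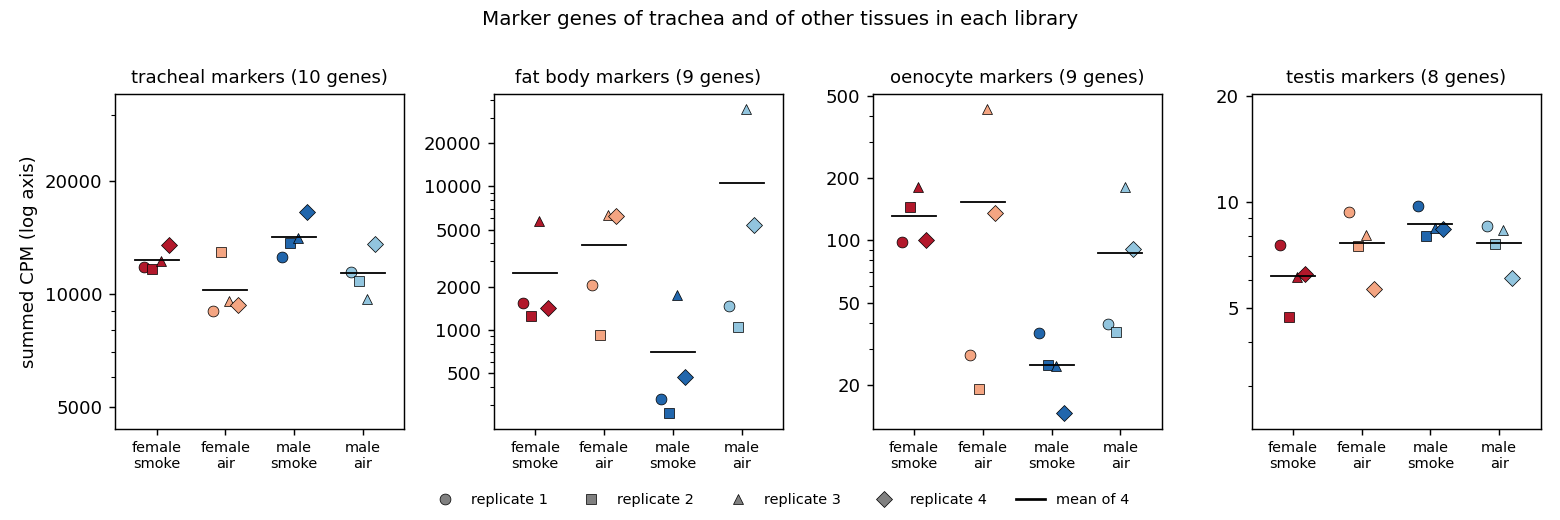
Summed CPM of tracheal, fat body, oenocyte and testis marker genes in each library, on log axes, with 4 libraries per group and a bar at the group mean. Tracheal markers stay between 9026 and 16506, whereas fat body markers reach 34615 in male air replicate 3 and oenocyte markers are lowest in male smoke.

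Likeness to the 8 genes was measured over the 16 libraries as Pearson's r, after the mean of the air libraries of the same sex had been taken from each log2 value. The libraries share their group, so r mostly follows the 4 group means, and it is a description. The genes most like the mean of the 8 were Fatp3 (r = 0.968), a fatty acid transport protein gene, fipi (0.967), St4 (0.962), a sulfotransferase gene, CG9265 (0.962) and Wnt6 (0.962), a Wnt ligand. Fatp3 averaged 559 ± 108 normalised reads in female smoke and 297 ± 53.3 in female air, and 167 ± 38.4 in male smoke and 558 ± 136 in male air. St4 averaged 1193 ± 95.3 and 348 ± 92.7 in female smoke and air, and 62.1 ± 44.8 and 651 ± 125 in male smoke and air. In male air Fatp3 and St4 stood above the levels of ADPS and Agpat4.

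Gene by gene, the closest pattern was that of CG18530 for Elo68alpha (r = 0.963), CG13060 for Elo68beta (0.970) and fbl for Desat1 (0.970). The gene fbl encodes pantothenate kinase, which begins coenzyme A synthesis. For ATPCL it was Hacd1 (0.959), for ACC CG8654 (0.897), for Agpat3 CG18508 (0.986), for Agpat4 St4 (0.987) and for ADPS CG9265 (0.978). Among the 8 genes themselves r was 0.938 for Elo68alpha with Elo68beta, 0.968 for Agpat3 with Agpat4 and 0.971 for Agpat4 with ADPS, and lowest for Elo68alpha with ACC, at 0.330.

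The genes lie on 3 chromosome arms, and the neighbours of the pairs were examined for the same change. APP-BP1, beside Elo68beta, had a log2 change of 0.06 in females and 0.18 in males and was not called. CG32071, beside Elo68alpha, was too low to test. Beside the Agpat pair, roq was not called, and RAF2 had 0.02 in females and rose by 0.26 in males (limma adjusted p = 0.0417). Kank, beside ADPS, rose by 0.76 in females (limma adjusted p = 0.0360), and its male change of 0.62 did not pass. CG12853, the other neighbour of ADPS, was also too low to test, with means of 1.88 normalised reads in female smoke and 1.02 in female air, and 0.426 in male smoke and 5.90 in male air. Of the neighbours tested, none outside the 8 genes was lower in male smoke past the test.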

How the data were processed

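RNA of 16 trachea libraries was examined, 4 per group, with groups and replicate numbers taken from the labels. Per the submitters' processing notes, STAR 2.6.0c and DESeq2 1.22.2 were used. The only genome build in those notes is a human one, so no coordinates are given. The counter, annotation and strand setting were not given in the sources used here, so reads of overlapping or antisense genes cannot be told apart. The authors deposited 1 table of normalised read signal per sex with 17559 genes, and their own log2 fold changes, with p-values and an error score (lfcSE) per gene, for each sex. Judged from the values, the deposited signal is read counts divided by a size factor: 100% of values were whole reads within 0.01 read (size factors 0.750 to 1.30), and recovered reads served for RPKM, CPM and count tests. Intervals of such reads would cover counting error only, and counting error is largest for genes with few reads. Every value column belonged to a sample.

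Genes reaching 10 normalised reads in 4 or more of a sex's 8 libraries were kept, and log2(value + 1) was fitted with limma 3.58.1 (R 4.3.3) with a trend, two-sided, in each sex alone, and in 1 model of 16 libraries for the female minus male difference. On this scale the changes of low genes can come out larger or smaller than in a count model. In males edgeR gave -4.48 for Elo68alpha, against -6.30 in limma, but -5.90 for ADPS, against -5.34 in limma. The fit was run on simulated reads with the same setting of spread for every gene. That run does not speak for genes as variable as Elo68alpha and ADPS. Benjamini-Hochberg adjustment ran over all genes tested. Exon lengths, chromosome arms and neighbours came from the Ensembl BDGP6.54 annotation, where 17253 of 17559 identifiers matched. Members and gene lists were chosen with earlier results of these data known. Outside the 9 genes, up to 2 called genes per list, comparison and direction were named by smallest adjusted p, with SREBP, SCAP, S1P, S2P, AMPKalpha, wat and FASN3 in any case, and genes of closest pattern.

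Alternatives were pseudocounts, filters, scalings, edgeR 4.0.16 and DESeq2 1.42.0 on recovered reads, a replicate block, a term for replicates 1 and 2 against 3 and 4, and leaving out each library. Fits within replicates 1 and 2 and within 3 and 4 were added after seeing the data. Marker levels were summed from CPM of recovered reads, with lists for trachea, fat body, oenocytes, testis, muscle, hemocytes and salivary gland.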

Additional observations from a re-analysis of the deposited data

Results flagged for a closer look

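In 60 groups of 4 libraries, formed by the 8 genes and 7 marker lists, 9 held a library far from the other 3 by Dixon's test, which chance gives in about 1 group in 20. Elo68alpha was 96.3 normalised reads in male smoke replicate 2, against 0.970 to 2.65 in the other male smoke libraries. Agpat3 was 2842 and ADPS 417 normalised reads in male air replicate 4, the highest of their group. Among markers, the fat body sum was 5776 CPM in female smoke replicate 3, 1751 in male smoke replicate 3 and 34615 in male air replicate 3. The muscle sum was 1820.4 CPM in male smoke replicate 2, the same library in which Elo68alpha was high. The other groups went the other way. In female smoke, female air and male air, replicate 3 had the highest muscle sum and the lowest Elo68alpha. A link between the muscle sum and Elo68alpha was not tested. The salivary gland sum was 6543 CPM in male air replicate 3, and the tracheal sum was 12928 CPM in female air replicate 2.

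For 5 of the 8 genes every smoke library lay above every air library in females and below every one in males. Nothing is read from this difference or from its limma calls, because the genes were picked for it. The female minus male log2 difference was 1.12 for Desat1, 0.99 for ATPCL, 1.26 for Agpat3, 5.24 for Agpat4 and 6.68 for ADPS. Among the other lipid synthesis genes the difference between the sexes itself passed limma for 8. It was 4.98 for Agpat2, 4.85 for CG1441, 1.91 for CG5065, 1.37 for wat, 1.23 for Acsl, 0.88 for Hacd1, 0.47 for CG8306 and 0.45 for oys.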

How the results depend on the processing

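Over 493 other settings for the log2 changes of the 8 genes, 485 moved the value by less than the spread between replicates and 8 by more, and no called change turned its sign. With an equal upper quartile or an equal total for all libraries of a sex, the female change of ACC was 0.08 and 0.07 and that of Agpat3 0.33 and 0.32. DESeq2 gave ADPS no adjusted p in males or for the difference. Rescaling moved the median female change of all genes by -0.11 in either case, and the female calls, 970 higher and 629 lower, were 722 and 1201 with the same upper quartile and 644 and 1042 with the same total. The male calls, 774 higher and 404 lower, were 459 and 542, and 444 and 467.

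All genes called numbered 1599 in females, 1178 in males and 187 for the difference. The replicate block gave 2504, 2816 and 669, the term for replicates 1 and 2 against 3 and 4 gave 2514, 1967 and 365, and DESeq2 gave 1971 in males and 342 for the difference. Of the 187 differences, 172 were positive and 15 negative. The replicate block gave 340 positive and 329 negative, and the term for replicates 1 and 2 against 3 and 4 gave 242 and 123. Leaving out 1 library gave 1005 to 2009 in females, 496 to 1183 in males and 131 to 188 for the difference. The lowest counts came without female smoke replicate 4 (1005), female smoke replicate 3 (1015), female air replicate 4 (1060), male smoke replicates 1 (496), 4 (639) and 3 (702), and male air replicates 2 (556), 4 (614) and 3 (769). Replicates 1 and 2 only gave 12, 146 and 61, and replicates 3 and 4 only gave 799, 11 and 1.

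Of the other lipid synthesis genes, 14, 4 and 8 were called. Females had 9 with the same total, 23 with DESeq2, 0 in replicates 1 and 2 only, and 8 to 18 without 1 library. Males had 7 with the same upper quartile, 11 with DESeq2, 16 with the replicate block and 10 with the term for replicates 1 and 2 against 3 and 4. They had 2 in replicates 1 and 2 only, 0 in replicates 3 and 4 only, and 2 to 4 without 1 library. The difference had 13 with DESeq2, 15 with the replicate block and 13 with the term for replicates 1 and 2 against 3 and 4. It had 3 in replicates 1 and 2 only, 0 in replicates 3 and 4 only, and 6 to 8 without 1 library. The causes were not tested, beyond the fewer libraries in the subsets. Same-numbered smoke and air libraries correlated by -0.10 to 0.42 in females and 0.04 to 0.46 in males, and differently numbered ones by -0.55 to 0.41 and -0.30 to 0.24. In each sex 6 of 8 libraries correlated best with their own number, a hint from the data, but not every same-numbered pair passed 0.1, so numbers were not taken as pairs. With the replicate block Elo68alpha and ACC were also called in females. Counting error limits Agpat4, ADPS and the Elo68 pair in male smoke, where libraries held few reads.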
